A study of Arabidopsis thaliana with 12 samples.

Results

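The response of Arabidopsis thaliana seeds to their first 6 h of imbibition (water uptake) was described in the wild-type accession Col-0. The members were chosen by label alone, as the 3 libraries of Col-0 seeds imbibed for 6 h and the 3 libraries of dry Col-0 seeds, 6 of the 12 RNA sequencing libraries of the series. The other 6 hold seeds of the mutant erf4, labelled an ERF4 knock out, in the same states. All genes were described, with 32833 listed in the count table and 18897 having enough counts to be tested. Parent plants were grown under days with 16 h of light and 8 h of darkness. Seeds were freshly harvested and had received no after-ripening (dry storage), per the labels, and were either sampled dry or set on water-saturated filter paper for 6 h. No agent, transgene or mutation was present in either Col-0 group. No label states the source of each replicate (plant, pot or harvest), and the p-values therefore rest on the spread between libraries alone, some or all of which may be technical.

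A dry seed holds stored mRNA laid down during maturation on the parent plant, among it transcripts for storage proteins and for late embryogenesis abundant (LEA) proteins, which protect cells during drying. On water uptake, respiration, RNA synthesis and protein synthesis resume within the first hours, well before the radicle emerges. Abscisic acid (ABA) maintains dormancy and gibberellin promotes germination, and freshly harvested seeds of this species are usually dormant.

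Depth ranged from 34283710 to 37905048 counts in imbibed libraries and from 36960635 to 41820266 in dry libraries. Levels are counts scaled to a library total of 1000000 (CPM), after correction by edgeR's TMM factors, which adjust for differences in library composition. The factors were 1.07 to 1.18 in imbibed libraries and 0.74 to 0.87 in dry ones. Before that correction, 3 counts in 1 imbibed or dry library equal 0.072 to 0.088 CPM. A CPM value is relative to the total of its library, and in whole seeds a loss of cells of one type cannot be told apart from less RNA per cell. The seed label was borne out by transcripts of storage proteins, which took 12.2% ± 2.32 of the counts in imbibed seeds and 17.2% ± 1.61 in dry seeds (SD, n = 3 per group, as throughout). Markers of green tissue summed to 66.5 ± 13.3 CPM in imbibed seeds and 61.0 ± 8.21 CPM in dry seeds. The first principal component, which parted the seed states, took 77.2% of the variance of the 6 libraries. Dry replicate 3 stood apart from the other dry libraries on the second component, which took 9.25%.

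In all, 9915 genes (52.5% of those tested) differed between the states at an adjusted p under 0.05 in edgeR's quasi-likelihood test, with Benjamini-Hochberg adjustment over all 18897 genes. Of these, 5148 (27.2%) were higher and 4767 (25.2%) were lower in imbibed seeds, and a gene is said to have risen or fallen when it passed this test. A change of at least 2-fold was reached by 2953 of the risen genes (15.6% of those tested) and 2412 of the fallen ones (12.8%). At least 8-fold was reached by 575 and 498, and at least 32-fold by 181 and 231. The median log2 fold change over all tested genes was 0.05. The 3 imbibed values lay wholly above the 3 dry ones for 34.7% of tested genes and wholly below them for 31.1%, and the groups did not overlap for 98.7% of the genes called. Among the 100 genes with the most counts, 8 rose and 66 fell. With library totals in place of TMM factors the median moved up by 0.48, and 8443 genes were called higher and 2366 lower (78.1% of calls higher, against 51.9%). No gene called with TMM factors was then called in the other direction. The library names end in r for the imbibed libraries and dry replicate 3 and in b for dry replicates 1 and 2, a letter that the labels do not explain. Among libraries ending in r alone, 3845 genes were called higher and 3685 lower. Directions are given relative to the bulk of the transcriptome, as TMM sets it, and the changes of counts with library totals are named beside the gene groups they affect. A count of calls within a gene list is to be read beside the shares of all tested genes, 27.2% higher and 25.2% lower.

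**Figure D1:**
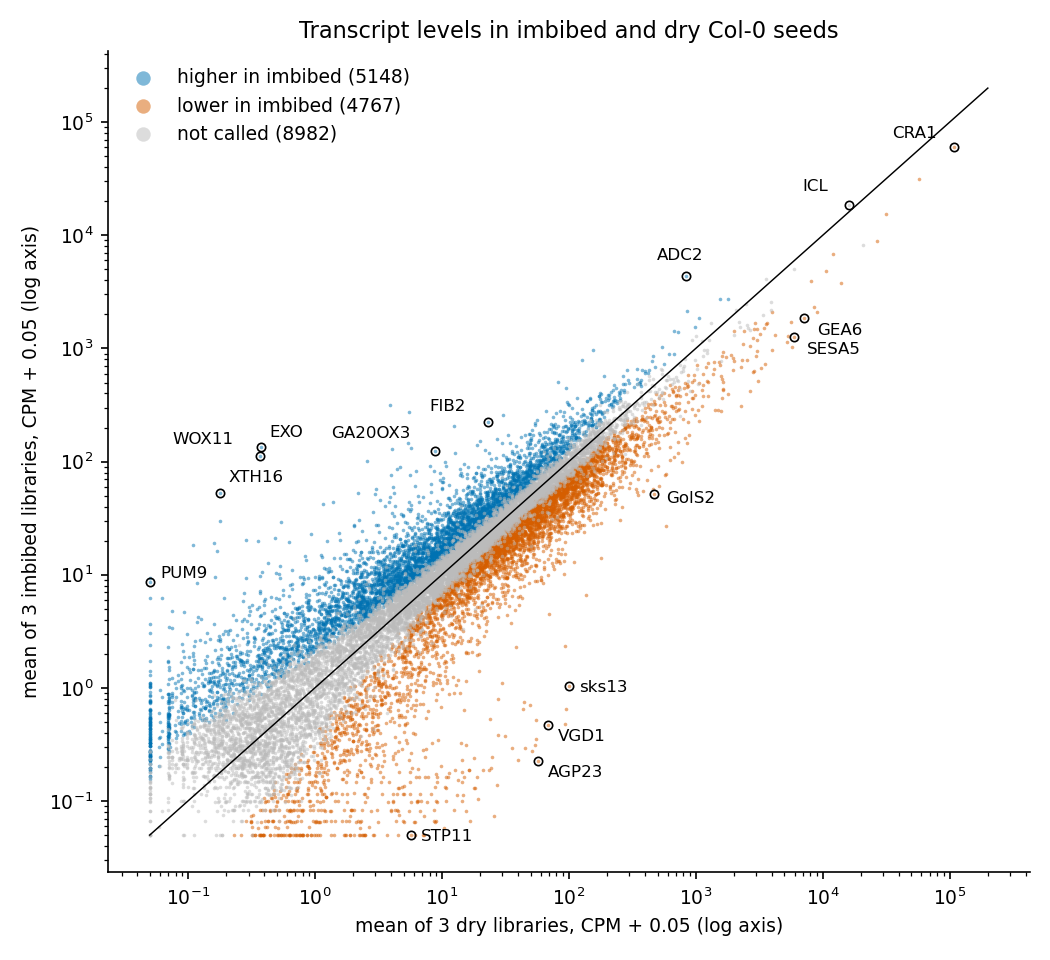
Mean level of each of the 18897 tested genes in 3 imbibed libraries (vertical axis) against 3 dry libraries (horizontal axis), in CPM plus 0.05 on log axes, coloured by call; the line marks equal levels. Blue points (5148 genes) lie above the line and orange points (4767 genes) below it, and at the highest levels most points lie below.

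The largest rises started from transcripts that were absent or nearly absent in dry seeds. Of the genes called higher, 123 had no count in any dry library, and 72 genes called lower had none in any imbibed library. AT5G17760, a gene of the P-loop nucleoside triphosphate hydrolase family (AT5G17760, chromosome 5, 5860350 to 5862475, minus strand), had 8.37, 9.10 and 10.6 CPM in imbibed seeds, against 0, 0 and 0 CPM in dry seeds. It was at least 294-fold higher in imbibed seeds, measured against 3 counts over the dry group (edgeR adjusted p = 2.15e-06). PUM9, which encodes an RNA-binding Pumilio protein, had 12.2, 6.97 and 6.54 CPM in imbibed seeds, against 0, 0 and 0 CPM in dry seeds, or at least 267-fold higher (edgeR adjusted p = 0.000256). It overlaps ANNAT1 on the other strand, and because no source names the strand setting of the counting, reads from overlapping genes cannot be told apart. Of the tested genes 5195 overlap a gene on the other strand, and not every such gene is marked below. Among those not marked are OLEO1, ERS1, JAZ10, COI1, AT-HSFB2B, RALFL8 and AT5G60615. AATP1, an AAA-type ATPase gene, was likewise at 0 in every dry library and had 8.40, 6.69 and 3.50 CPM in imbibed ones (at least 194-fold higher, edgeR adjusted p = 6.31e-05).

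The transcription factor genes WOX11, bZIP44 and NTL8 were among these 12 largest rises. WOX11, a homeobox factor known for root founder cell identity, stood at 88.9, 119 and 126 CPM in imbibed seeds, against 0.311, 0.289 and 0.366 CPM in dry seeds, with every imbibed library far above every dry one (log2 fold change 8.43 ± 0.46, edgeR adjusted p = 1.23e-07; fold changes are imbibed over dry, ± SE). The basic leucine zipper factor bZIP44 stood at 16.6, 19.3 and 18.7 CPM in imbibed seeds, against 0.0622, 0.115 and 0 CPM in dry seeds (8.10, edgeR adjusted p = 4.76e-08). Its fold change was 8.95 without dry replicate 2, the highest of the dry libraries. NTL8, a membrane-bound NAC factor linked to salt responses of germinating seeds, stood at 35.8, 29.8 and 24.2 CPM in imbibed seeds, against 0.187, 0.202 and 0 CPM in dry seeds (7.74, edgeR adjusted p = 1.65e-06). XTH16 and EXO, also among the 12, are described with the cell wall genes, and AGP17, an arabinogalactan protein gene, had 18.9 ± 3.43 CPM in imbibed seeds and 0.109 ± 0.0964 CPM in dry seeds (7.43). AT3G23470, annotated as a cyclopropane fatty acid synthase, had 1 count in the dry group and was 578-fold higher by counts (95% counting interval 103 to 22873), an interval that covers counting error only. AT4G35985, a senescence- and dehydration-associated gene, and AT1G09787, annotated as a snoRNA gene, rose by 6.96 and 6.77. The value of AT1G09787, with few dry counts, was 8.71 without dry replicate 2.

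The machinery that builds ribosomes rose almost as a whole. Of 27 tested genes of ribosome biogenesis 26 rose and 0 fell, with a median log2 fold change of 0.93 against 0.05 over all genes, where 27.2% of all tested genes rose and 25.2% fell. Their summed level was 5990.0, 5921 and 6279 CPM in imbibed seeds, against 3194, 3204 and 3165 CPM in dry seeds. The imbibed libraries thus held close to the same level as each other, all above the dry ones. AT5G41190 alone was not called (89.4 and 83.6 CPM in imbibed and dry seeds, edgeR adjusted p = 0.508). It was called higher with library totals. The core enzymes of both box C/D and box H/ACA small nucleolar ribonucleoproteins, which modify ribosomal RNA, were among the risers. FIB2, a fibrillarin that methylates ribosomal RNA (AT4G25630, chromosome 4, 13074090 to 13076432, plus strand), had 222, 224 and 228 CPM in imbibed seeds, against 27.3, 24.5 and 17.3 CPM in dry seeds. These groups lay far apart (log2 fold change 3.29 ± 0.18, edgeR adjusted p = 6.94e-08), while FIB1, the other fibrillarin gene of the list, differed by 0.48 (edgeR adjusted p = 0.0115; not called among libraries ending in r alone). NAP57, the dyskerin homologue that forms pseudouridine, had 385, 340.1 and 360.3 CPM in imbibed seeds, against 119, 120.5 and 108 CPM in dry seeds (log2 fold change 1.64 ± 0.11, edgeR adjusted p = 3.1e-07).

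Other members act on the pre-ribosomal particles themselves. NUC-L1, a nucleolin needed for ribosomal RNA gene expression (AT1G48920, chromosome 1, 18098081 to 18101732, plus strand), had 1343, 1347 and 1492 CPM in imbibed seeds, against 707, 751 and 733 CPM in dry seeds (log2 fold change 0.93 ± 0.16, edgeR adjusted p = 0.000267). It overlaps GH9C1 on the other strand. AT2G40360, a WD40 repeat gene of the list, had 249 ± 1.17 CPM in imbibed seeds and 74.8 ± 2.37 CPM in dry seeds (1.73, edgeR adjusted p = 1.75e-07). PUM24, a nucleolar Pumilio protein of pre-rRNA processing, and NSN1, a nucleostemin-like GTPase, both differed by 1.49. The NOP56-like gene AT5G27120 rose by 1.59. The large subunits of RNA polymerase I, which transcribes ribosomal RNA genes, rose less, with 0.50 for NRPA1 and 0.68 for NRPA2, 2 members chosen after their values were seen.

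Small nucleolar RNA genes and ribosomal protein genes moved the same way. Of 142 tested snoRNA genes, which guide ribosomal RNA modification, 97 rose and 0 fell (median 2.37), and their sum was 328, 376 and 346 CPM in imbibed seeds, against 103, 123 and 89.7 CPM in dry seeds. Of the 97, 85 overlap no other annotated gene. For at least 8 snoRNA genes, a gene that overlaps them on the same strand rose. The most abundant snoRNA gene called, AT1G09467, had 14.3, 16.9 and 16.4 CPM in imbibed seeds, against 3.36, 3.84 and 2.71 CPM in dry seeds (log2 fold change 2.26 ± 0.20, edgeR adjusted p = 1.65e-06). Libraries were made from total RNA by a protocol whose size selection was not given, and RNAs with a median length of 92 bases are counted only in part by such libraries. Among 310 tested genes annotated as ribosomal proteins 184 rose and 18 fell (6 fell with library totals), with a median of 0.70. Their summed level was 34267, 35349.7 and 34021 CPM in imbibed seeds, against 22425, 24187 and 20151 CPM in dry seeds, again without overlap. RPSAb, a 40S subunit protein gene, had 34.9, 34.4 and 32.9 CPM in imbibed seeds, against 6.75, 6.64 and 6.00 CPM in dry seeds (2.40, edgeR adjusted p = 1.23e-07). AT2G37190, of the L11 family, had 149.7 ± 8.02 CPM in imbibed seeds and 46.5 ± 7.06 CPM in dry seeds (1.69). These 2 were taken from the members with the smallest p-values after their values were seen.

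Genes for pentatricopeptide repeat proteins, which bind and process organelle transcripts, followed the ribosomal ones. Of 279 tested, 151 rose and 18 fell (7 with library totals), with a median of 0.62. PPR596 stood at 73.7, 76.1 and 80.4 CPM in imbibed seeds, against 13.6, 13.2 and 14.6 CPM in dry seeds (log2 fold change 2.48 ± 0.14, edgeR adjusted p = 6.94e-08), and it overlaps a gene on the other strand. PNM1, a pentatricopeptide repeat protein found in both mitochondria and the nucleus, had 78.2 ± 5.12 CPM in imbibed seeds and 29.7 ± 2.01 CPM in dry seeds (1.39). Both were the called members with the smallest p-values. Transcripts of the organelle genomes themselves went the other way, with 27 of 45 tested mitochondrial genes lower and 0 higher, and 14 of 61 plastid genes lower and 0 higher. The plastid count was 8 without dry replicate 1, imbibed replicate 2 or imbibed replicate 3, and 5 with library totals. Mitochondrial genes summed to 287, 260.3 and 171 CPM in imbibed seeds, against 489, 705 and 456 CPM in dry seeds. All organelle genes together made up 0.022 to 0.040% of the counts in imbibed libraries and 0.039 to 0.067% in dry ones, shares that depend on how RNA was selected for the libraries.

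The promoters of NUC-L1 and FIB2 are shown because they carry the telo box, a motif known from promoters of plant ribosomal genes. Each sequence runs 5′ to 3′ from 250 bases before to 50 bases after the annotated gene start, read from the RefSeq TAIR10.1 genome, and capitals mark each AAACCCTA or its reverse complement. The windows are chr1:18097831-18098130, plus strand, for NUC-L1 and chr4:13073840-13074139, plus strand, for FIB2.
NUC-L1: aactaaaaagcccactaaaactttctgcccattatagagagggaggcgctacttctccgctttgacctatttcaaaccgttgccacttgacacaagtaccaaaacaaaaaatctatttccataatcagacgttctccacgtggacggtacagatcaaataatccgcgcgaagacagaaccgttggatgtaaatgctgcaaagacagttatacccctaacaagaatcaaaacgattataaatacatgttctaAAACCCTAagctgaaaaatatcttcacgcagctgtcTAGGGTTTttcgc
FIB2: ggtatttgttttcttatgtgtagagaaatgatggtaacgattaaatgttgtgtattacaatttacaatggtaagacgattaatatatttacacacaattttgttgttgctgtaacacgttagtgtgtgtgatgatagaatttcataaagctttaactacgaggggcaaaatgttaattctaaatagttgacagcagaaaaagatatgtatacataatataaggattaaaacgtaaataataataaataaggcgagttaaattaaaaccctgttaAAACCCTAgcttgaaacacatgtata

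NUC-L1 held the motif on both strands and FIB2 held it once, in each case just past the gene start. The motif was searched on both strands of such windows, and a match describes letters and not a bound site. It stood in 9.09% of 2761 promoters of protein-coding genes that rose at least 2-fold and 2.94% of 2313 that fell at least 2-fold, against 6.22% of all 27443 protein-coding promoters. Among the 27 genes of ribosome biogenesis it stood in 44.4%, and among the 310 ribosomal protein genes in 37.7%. The site II element TGGGCC, which accompanies it in many ribosomal promoters, stood in 21.4% of promoters of genes that rose, 11.8% of those that fell and 15.5% of all. Genes not called held site II in 19.5% of their promoters, close to the share among risen genes.

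**Figure D2:**
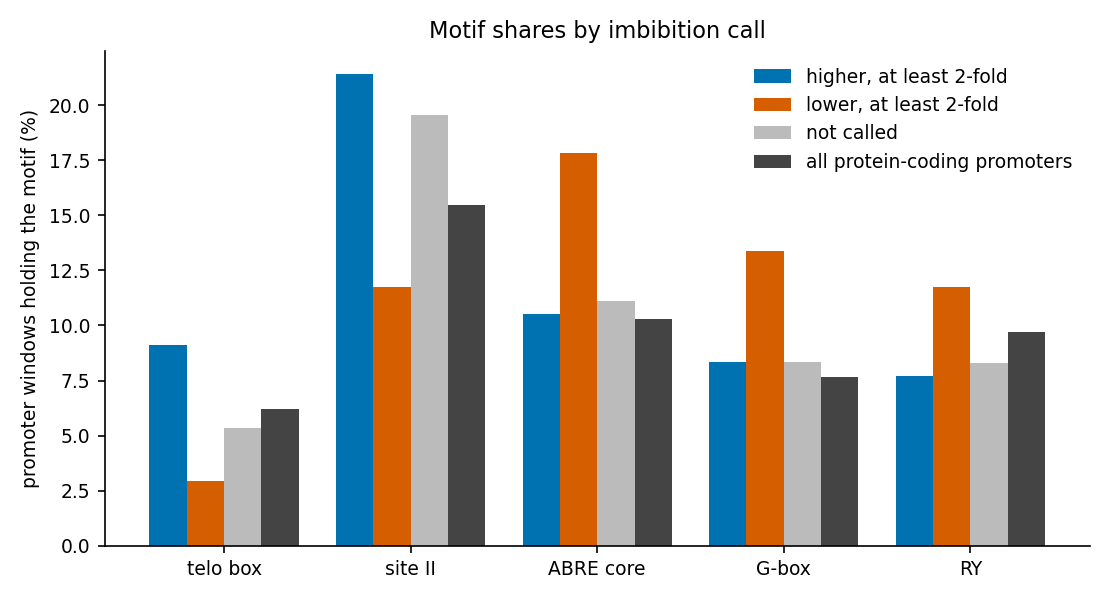
Share of promoter windows of 300 bases that hold each of 5 motifs, on either strand, for protein-coding genes that rose at least 2-fold (2761), fell at least 2-fold (2313) or were not called (8537), and for all 27443. The telo box is more frequent among risen genes and the ABRE core, G-box and RY motif are more frequent among fallen genes than in the other sets.

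Stored maturation transcripts fell. Of 12 tested storage protein genes 10 fell and 0 rose (median -1.65), and their summed level was 85321, 102035 and 136191 CPM in imbibed seeds, against 178847, 211658 and 252378 CPM in dry seeds. Imbibed replicate 3 lay nearest to the dry libraries without reaching them. SESA5, a 2S albumin gene (AT5G54740, chromosome 5, 22238358 to 22239187, minus strand), had 1089.8, 1202 and 1465 CPM in imbibed seeds, against 4838, 6754 and 6339.8 CPM in dry seeds (log2 fold change -2.26 ± 0.21, edgeR adjusted p = 2.02e-06). PAP85, a vicilin-like globulin gene, had 6732, 7959.9 and 12024 CPM in imbibed seeds, against 21260.5, 23844 and 34711 CPM in dry seeds (log2 fold change -1.58 ± 0.30, edgeR adjusted p = 0.000601). The cruciferin gene CRU2 differed by -1.61, the cupin genes AT1G03890 and AT2G28490 by -2.34 and -1.68, and the albumin gene SESA3 by -1.71. The 2 transcripts with the largest loss in CPM fell less. CRA1, a 12S cruciferin gene, had 47884, 60127 and 73978 CPM in imbibed seeds, against 92905, 108608 and 125582 CPM in dry seeds (log2 fold change -0.85 ± 0.26, edgeR adjusted p = 0.0144), and CRU3 differed by -0.87 (edgeR adjusted p = 0.0232). The call of CRA1 was lost without dry replicate 3 or imbibed replicate 1 (edgeR adjusted p = 0.0506 and 0.0754). The call of CRU3 was lost without dry replicate 2 or 3 or imbibed replicate 1 or 2, with edgeR adjusted p between 0.0544 and 0.1. Neither was called among libraries ending in r alone or with library totals. SESA1 and SESA2 were not called, with -0.53 and -1.09, although SESA2 was called lower with the Col-0 libraries fitted alone and with the replicate number as a block.

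Oil body coat proteins and LEA proteins showed the same direction. Of 7 tested oil body genes 5 fell and 0 rose, a count that was 3 without imbibed replicate 1, without imbibed replicate 2 or with library totals. The oleosin gene AT3G01570 had 955 ± 228 CPM in imbibed seeds and 3033 ± 202 CPM in dry seeds (log2 fold change -1.67 ± 0.25, edgeR adjusted p = 0.000116), and it overlaps a gene on the other strand. OLEO1, which coats seed oil bodies, had 3923 ± 1025 CPM in imbibed seeds and 8049 ± 1033 CPM in dry seeds (-1.04), and its call was lost without imbibed replicate 1 or 2 (edgeR adjusted p = 0.0522 and 0.0581). OLEO4 differed by -1.26 and the caleosin gene ATS1 by -1.34. Of 21 tested LEA genes 14 fell and 1 rose (median -1.13), with sums of 28427, 23884 and 34245 CPM in imbibed seeds, against 53394, 64989.7 and 84503 CPM in dry seeds. The riser, ECP63, was not called with RLE size factors, nor without dry replicate 1 or 2 or imbibed replicate 1 or 3.

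Among the LEA genes, GEA6, an Em protein gene of group 1 (AT2G40170, chromosome 2, 16779552 to 16780368, minus strand), had 1829, 1306 and 2424 CPM in imbibed seeds, against 5748, 7007 and 8674 CPM in dry seeds (log2 fold change -1.95 ± 0.32, edgeR adjusted p = 0.000226). RAB18, a dehydrin gene induced by ABA, had 4433, 2445 and 4447 CPM in imbibed seeds, against 10345, 13183 and 18251 CPM in dry seeds (log2 fold change -1.88 ± 0.33, edgeR adjusted p = 0.000359), and overlaps a gene on the other strand. ATECP31 and AT3G15670 each fell by more than 2 on the log2 scale (-2.18 and -2.09). The group was not uniform. EM1, the other Em gene, stood at 1159 and 1130.4 CPM in imbibed and dry seeds (0.04, edgeR adjusted p = 0.94), and M17 at 5085 and 5923 CPM in imbibed and dry seeds (-0.22, edgeR adjusted p = 0.456), both chosen after their values were seen. Other large losses in CPM were those of AT1G04560, an AWPM-19-like membrane protein gene (-1.87), AT1G54870, a Rossmann-fold dehydrogenase gene (-1.14), LCR67, a defensin-like gene (-1.03), and AT1G68250 (-0.82). LCR67 was not called without dry replicate 2 or imbibed replicate 1 or 3 (edgeR adjusted p between 0.0501 and 0.0569). AT1G68250 was not called without dry replicate 3 or imbibed replicate 1 or 2 (edgeR adjusted p between 0.0766 and 0.0853). Both lost their calls among libraries ending in r alone and with library totals.

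**Figure D3:**
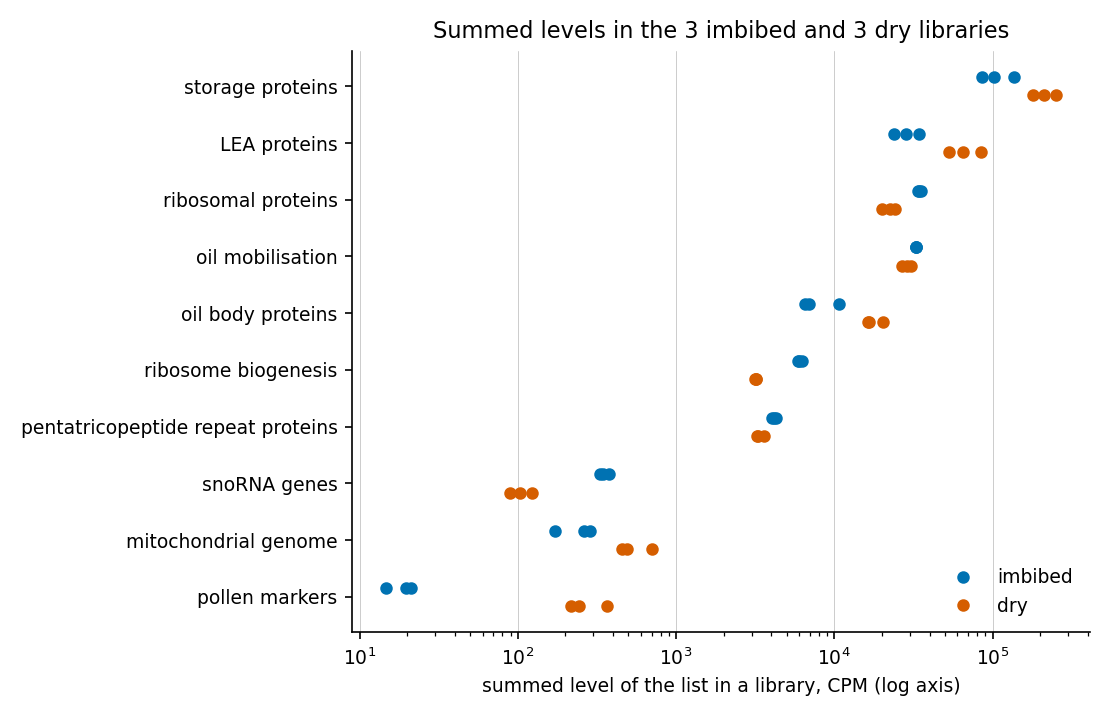
Summed level of 10 gene groups in each of the 3 imbibed (upper, blue) and 3 dry (lower, orange) libraries, in CPM on a log axis. The groups of libraries do not overlap for any of the 10, and the pollen markers are the farthest apart, at 14.7 to 21.3 CPM in imbibed seeds and 217 to 367 CPM in dry seeds.

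Promoters of 4 of these genes are shown because they carry motifs known from seed maturation genes. Capitals mark ACGTGNC, the core of the ABA response element (ABRE), in GEA6 and RAB18. In SESA5 they mark the RY motif CATGCA and the G-box CACGTG, and in PAP85 the RY motif, on either strand. The windows, cut as before, are chr2:16780319-16780618, minus strand, for GEA6, chr5:26519398-26519697, minus strand, for RAB18, chr5:22239138-22239437, minus strand, for SESA5, and chr3:8013892-8014191, minus strand, for PAP85.
GEA6: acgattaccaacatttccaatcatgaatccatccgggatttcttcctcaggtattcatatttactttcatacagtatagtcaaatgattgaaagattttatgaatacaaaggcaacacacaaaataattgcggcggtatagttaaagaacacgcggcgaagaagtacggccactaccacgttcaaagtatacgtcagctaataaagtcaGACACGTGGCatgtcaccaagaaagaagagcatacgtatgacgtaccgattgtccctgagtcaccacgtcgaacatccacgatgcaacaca
RAB18: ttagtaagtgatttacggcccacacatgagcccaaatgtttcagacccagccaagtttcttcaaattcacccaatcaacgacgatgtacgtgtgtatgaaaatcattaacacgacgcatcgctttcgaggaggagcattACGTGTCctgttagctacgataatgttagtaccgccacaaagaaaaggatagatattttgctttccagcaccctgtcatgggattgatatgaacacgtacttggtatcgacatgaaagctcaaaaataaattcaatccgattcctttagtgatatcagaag
SESA5: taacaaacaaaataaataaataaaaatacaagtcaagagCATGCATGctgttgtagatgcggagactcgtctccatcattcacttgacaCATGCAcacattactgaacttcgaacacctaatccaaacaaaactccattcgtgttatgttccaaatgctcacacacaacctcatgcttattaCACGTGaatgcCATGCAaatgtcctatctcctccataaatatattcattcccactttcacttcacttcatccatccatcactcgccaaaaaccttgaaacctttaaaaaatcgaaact
PAP85: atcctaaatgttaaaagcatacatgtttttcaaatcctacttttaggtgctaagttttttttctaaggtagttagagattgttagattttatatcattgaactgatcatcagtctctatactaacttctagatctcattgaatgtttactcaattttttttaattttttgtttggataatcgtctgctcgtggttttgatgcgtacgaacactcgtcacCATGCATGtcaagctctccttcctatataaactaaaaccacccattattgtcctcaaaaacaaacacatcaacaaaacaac

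The ABRE core stood in 85.7% of the 21 LEA promoters, 17.81% of promoters of all genes that fell at least 2-fold and 10.5% of those that rose, against 10.3% of all protein-coding promoters. The G-box, which contains most of an ABRE core and completes one where any base and a C follow it, stood in 13.4% of those that fell and 8.33% of those that rose. The RY motif, bound by B3-domain factors such as ABI3 and FUS3, stood in 83.3% of the 12 storage protein promoters. Its share was 11.8% among all genes that fell at least 2-fold, 7.71% among those that rose and 9.72% of all. These lists were written from knowledge of the genes, many of which are studied for those motifs.

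Among genes of ABA metabolism, synthesis genes fell or were not called, apart from 1. In all 2 of 12 tested rose and 3 fell. ABA1, the zeaxanthin epoxidase of the first committed steps, had 163, 161 and 184 CPM in imbibed seeds, against 396, 382 and 511 CPM in dry seeds (log2 fold change -1.35 ± 0.15, edgeR adjusted p = 9.84e-06). NCED3, a rate-limiting dioxygenase known from drought stress, had 0.264 ± 0.146 CPM in imbibed seeds and 2.50 ± 0.911 CPM in dry seeds (-3.23), and ABA3, which makes the cofactor of the last enzyme, differed by -0.65. NCED6 and NCED9, the dioxygenases known from seeds, had -0.62 and -0.40 and were not called (edgeR adjusted p = 0.145 and 0.179). NCED5 differed by 1.23, a call that was lost without dry replicate 2 or 3 or imbibed replicate 1 or 2. On the breakdown side, the ABA 8'-hydroxylase gene CYP707A3 had 13.5, 16.6 and 11.8 CPM in imbibed seeds, against 2.68, 3.72 and 2.01 CPM in dry seeds, all imbibed values above all dry ones (log2 fold change 2.31 ± 0.58, edgeR adjusted p = 0.00554). It was not called among libraries ending in r alone. CYP707A2, the family member best known for ABA breakdown in imbibed seeds, stood at 31.6, 34.3 and 29.9 CPM in imbibed seeds, against 23.1, 32.5 and 33.6 CPM in dry seeds, with groups that overlapped (log2 fold change 0.10 ± 0.16, edgeR adjusted p = 0.616). With library totals CYP707A2 was called higher and ABA3 was not called.

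Genes of ABA perception and response were called in both directions. Of 30 tested, 11 rose and 15 fell, 36.7% and 50.0% beside 27.2% and 25.2% of all tested genes. With library totals 7 fell. Among the PYR/PYL receptors, which bind ABA, 6 rose, among them PYL6, with 4.63 ± 0.846 CPM in imbibed seeds and 0.0436 ± 0.0385 CPM in dry seeds (log2 fold change 6.66 ± 0.60, edgeR adjusted p = 4.6e-06), and 1 fell. Of the clade A phosphatases, which hold the pathway off, ABI2 had 30.8, 26.7 and 25.7 CPM in imbibed seeds, against 92.9, 81.8 and 72.8 CPM in dry seeds (log2 fold change -1.57 ± 0.14, edgeR adjusted p = 1.35e-06). HAI3, of the same clade, went the other way, with 164, 155 and 208 CPM in imbibed seeds, against 59.9, 44.1 and 44.0 CPM in dry seeds (log2 fold change 1.83 ± 0.18, edgeR adjusted p = 3.48e-06). The kinase gene OST1, which acts downstream of the phosphatases, had 40.9 ± 4.04 CPM in imbibed seeds and 10.9 ± 1.32 CPM in dry seeds (1.90, edgeR adjusted p = 1.22e-06), while its relatives SNRK2.2 and SNRK2.3 fell (-0.75 and -0.59, neither called with library totals).

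The transcription factors of the pathway also parted. ABI3, a B3-domain master regulator of seed maturation, had 399, 377 and 412 CPM in imbibed seeds, against 159, 167 and 214 CPM in dry seeds (log2 fold change 1.14 ± 0.21, edgeR adjusted p = 0.000474). ABI4, an AP2 factor that represses germination, had 44.4, 43.6 and 42.2 CPM in imbibed seeds, against 6.10, 10.3 and 7.64 CPM in dry seeds (log2 fold change 2.43 ± 0.30, edgeR adjusted p = 2.85e-05). For both, no imbibed value came near a dry one. ABI5, a basic leucine zipper factor that restrains germination, had 309, 264 and 334 CPM in imbibed seeds, against 583, 604 and 877 CPM in dry seeds (log2 fold change -1.19 ± 0.24, edgeR adjusted p = 0.00101). EEL, a zipper factor of the same group, had 39.2 ± 2.03 CPM in imbibed seeds and 140.4 ± 15.5 CPM in dry seeds (-1.84) and overlaps a gene on the other strand. The related zipper factor genes ABF1, ABF2, ABF4, AREB3 and DPBF2 fell as well, by log2 fold changes between -2.24 for DPBF2 and -0.50 for ABF1. With library totals ABF1, ABF4 and AREB3 were not called.

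**Figure D4:**
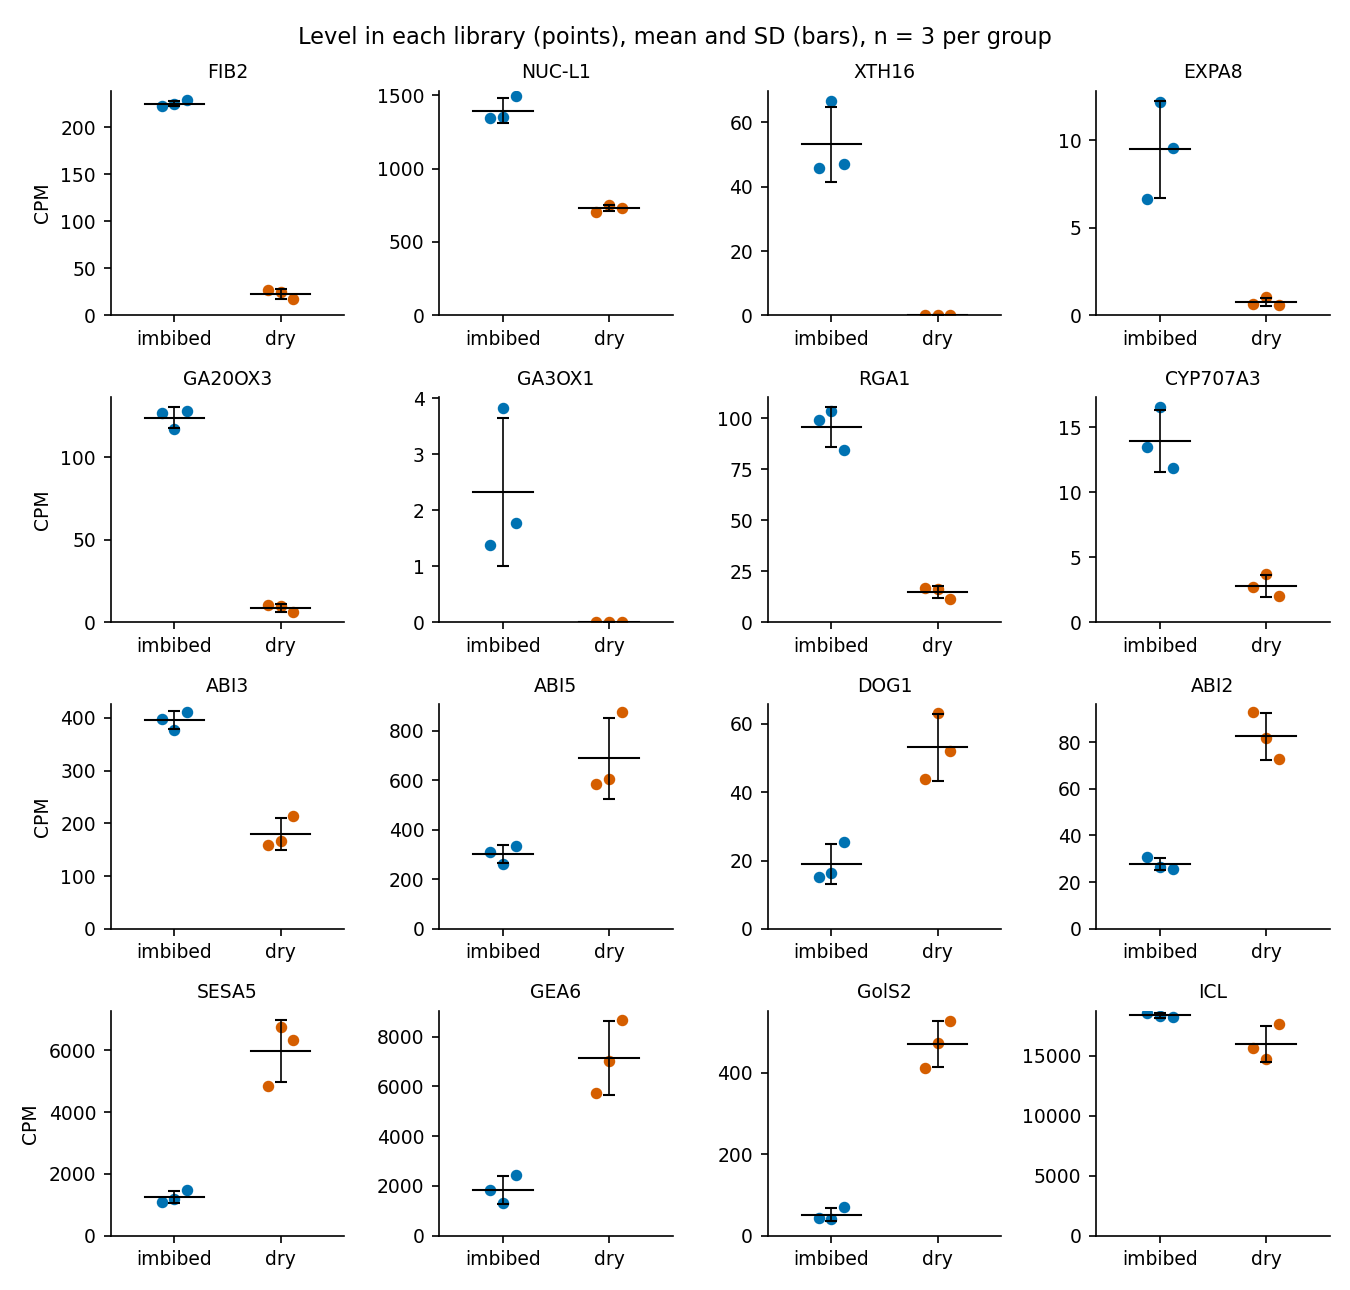
Level of 16 genes in each library, in CPM on linear axes from 0, with the 3 imbibed libraries at left (blue) and the 3 dry libraries at right (orange); the horizontal bar is the mean and the whiskers are 1 SD. Imbibed values lie above dry ones from FIB2 to ABI3 and below them from ABI5 to GolS2, and ICL, in the last panel, was not called.

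Of 9 tested dormancy genes 3 rose and 4 fell, 33.3% and 44.4% beside 27.2% and 25.2% of all tested genes. DOG1, the central regulator of seed dormancy (AT5G45830, chromosome 5, 18589418 to 18591506, minus strand), had 15.1, 16.3 and 25.6 CPM in imbibed seeds, against 43.9, 63.3 and 52.2 CPM in dry seeds, so that imbibed replicate 3 was the nearest to the dry libraries (log2 fold change -1.49 ± 0.20, edgeR adjusted p = 4.98e-05). FUS3, a B3-domain factor of embryo maturation, had 11.1 ± 1.74 CPM in imbibed seeds and 30.9 ± 8.86 CPM in dry seeds (-1.48), and SOM, a zinc finger gene that represses germination in the dark, had 761 ± 117 CPM in imbibed seeds and 1523 ± 54.2 CPM in dry seeds (edgeR adjusted p = 0.00191). HUB1, the histone H2B ubiquitin ligase whose loss reduces dormancy, differed by -0.70. SPT, a basic helix-loop-helix repressor of germination of dormant seeds, had 7.98 ± 1.98 CPM in imbibed seeds and 2.86 ± 1.24 CPM in dry seeds (1.47). PUM9, given above with the largest rises, is the Pumilio gene of this list.

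Among gibberellin genes, late synthesis enzymes and DELLA repressors rose. Of 23 tested, 11 rose and 6 fell, with a median of 1.19, and the risers held 5 oxidases of synthesis and 4 DELLA genes. GA20OX3, which makes the precursors of active gibberellin (AT5G07200, chromosome 5, 2243553 to 2245339, minus strand), had 127, 117 and 128 CPM in imbibed seeds, against 10.2, 9.99 and 6.07 CPM in dry seeds (log2 fold change 3.82 ± 0.26, edgeR adjusted p = 3.15e-07). GA3OX1 and GA3OX2, which make the active hormone, had no count in any dry library. GA3OX1 reached 1.38, 3.83 and 1.78 CPM and GA3OX2 0.802, 2.08 and 0.839 CPM in imbibed libraries, at least 73.9-fold and at least 39.4-fold higher (edgeR adjusted p = 9.85e-05 and 0.000168). Imbibed replicate 2 was the highest for both. Of the DELLA proteins, which repress growth until gibberellin is perceived, RGA1 had 99.2, 104 and 84.6 CPM in imbibed seeds, against 16.9, 16.4 and 11.6 CPM in dry seeds (log2 fold change 2.68 ± 0.22, edgeR adjusted p = 8.46e-07). RGL2, the DELLA best known from germination, had 73.0, 83.9 and 82.2 CPM in imbibed seeds, against 20.5, 17.81 and 17.5 CPM in dry seeds (log2 fold change 2.099 ± 0.20, edgeR adjusted p = 2.76e-06), GAI differed by 1.19, and RGL3 fell (-1.15). The receptor genes GID1A and GID1C fell, with 115 ± 17.01 CPM in imbibed seeds and 239.8 ± 7.87 CPM in dry seeds for GID1A (-1.06) and -0.99 for GID1C.

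Of 16 tested ethylene genes 4 rose and 4 fell, or 8 and 1 with library totals. These 4 of 16 in each direction lay near the shares of all tested genes (27.2% higher and 25.2% lower). Of synthesis genes ACO1 rose (0.94) and EFE, an ACC oxidase, fell (-2.15). The call of ACO1 was lost without dry replicate 2 or 3 or imbibed replicate 2 or 3, and that of EFE without dry replicate 1 or 2 or imbibed replicate 3, or with library totals. The receptor genes ETR2, ERS1 and EIN4 rose (1.33, 2.31 and 1.24), ERS2 fell (-0.81), and the central transcription factor genes EIN3 and EIL1 fell (-0.65 and -1.07). EIN3 stood at 386, 377 and 409.7 CPM in imbibed seeds, against 615, 604 and 615 CPM in dry seeds. ERF4, the gene altered in the mutant of the series, stood at 17.9 ± 2.78 CPM in imbibed seeds and 14.0 ± 1.72 CPM in dry seeds and was not called (edgeR adjusted p = 0.649). That test draws its spread from all 12 libraries. In those labelled imbibed erf4, ERF4 ran from 2.09 to 19.3 CPM on the scale of library totals. With the Col-0 libraries fitted alone it was called only with the replicate number as a block. Of 18 tested jasmonate genes 3 rose and 8 fell, 16.7% and 44.4% beside 27.2% and 25.2% of all tested genes. With library totals 2 fell. Without 1 library the jasmonate count of falls was 4 or 5, except without dry replicate 3, and that of rises was 1 without dry replicate 3 and 0 without imbibed replicate 2. AOC2, an allene oxide cyclase of jasmonate synthesis, had 40.9 ± 2.08 CPM in imbibed seeds and 92.4 ± 7.94 CPM in dry seeds (-1.18), and JAZ10, a repressor of jasmonate responses, had 9.33 ± 0.694 CPM in imbibed seeds and 31.9 ± 10.6 CPM in dry seeds (-1.77). JAZ8 and AOC1 fell (-1.48 and -1.60, AOC1 not called without imbibed replicate 3 and neither called among libraries ending in r alone) and JAR1, which conjugates jasmonate, rose (0.57, not called without imbibed replicate 2). The receptor gene COI1 differed by -0.36. This turned to 0.12 with library totals, and the call was lost without dry replicate 1 or imbibed replicate 1 or 2.

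Genes that mobilise stored oil changed by less than 2-fold. Of 20 tested, 7 rose and 6 fell (1 fell with library totals), and the largest difference was that of ACX2, given below. ICL, the isocitrate lyase of the glyoxylate cycle, had 18553, 18296 and 18233 CPM in imbibed seeds, against 15652, 14704 and 17663 CPM in dry seeds (log2 fold change 0.20 ± 0.19, edgeR adjusted p = 0.396), and MLS, malate synthase of the same cycle, differed by 0.20 (edgeR adjusted p = 0.334). Neither was called, although every imbibed value of ICL lay above every dry one. With library totals both ICL and MLS were called higher. PCK1, which starts sugar formation from the products of oil breakdown, had 2664, 2815 and 2732 CPM in imbibed seeds, against 1836, 1737 and 1827 CPM in dry seeds (log2 fold change 0.60 ± 0.14, edgeR adjusted p = 0.00329), and was not called among libraries ending in r alone. The acyl-CoA oxidase genes of fatty acid β-oxidation parted, with ACX2 at 0.88 and ACX1, ACX3 and ACX4 at -0.84, -0.68 and -0.60. LACS7, which activates fatty acids in the peroxisome, rose (0.81), as did MFP2 of β-oxidation (0.63) and SDP6 of glycerol use (0.66).

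Among raffinose family sugar genes, which serve desiccation tolerance, 1 of 7 tested rose and 5 fell. GolS2, a galactinol synthase (AT1G56600, chromosome 1, 21207537 to 21209635, plus strand), had 42.56, 41.7 and 69.8 CPM in imbibed seeds, against 412, 471 and 526 CPM in dry seeds, with a gap between the groups of several-fold (log2 fold change -3.19 ± 0.24, edgeR adjusted p = 5.08e-07). GolS1 differed by -1.498. DIN10, a raffinose synthase family gene, had 11.4, 11.3 and 9.08 CPM in imbibed seeds, against 0.311, 0.606 and 0.0731 CPM in dry seeds (log2 fold change 4.94 ± 0.59, edgeR adjusted p = 2.49e-05; 5.71 without dry replicate 2). The falls of STS (-0.73), SIP1 (-2.36) and AGAL1 (-0.64) were lost on leaving out single libraries. STS was not called without dry replicate 2 or 3 or imbibed replicate 1 or 2, SIP1 when any 1 library but dry replicate 3 was left out, and AGAL1 without imbibed replicate 3. SIP1 stood at 0.42 among libraries ending in r alone. Hence 3 members fell without dry replicate 2 or any 1 imbibed library, and 2 with library totals.

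The genes described next were among the 10 with the largest gains in CPM. ADC2, arginine decarboxylase of polyamine synthesis (AT4G34710, chromosome 4, 16560030 to 16563044, minus strand), had 5266, 3507 and 4205 CPM in imbibed seeds, against 934, 778 and 817 CPM in dry seeds (log2 fold change 2.36 ± 0.32, edgeR adjusted p = 4.15e-05). HSC70-1, a cytosolic chaperone gene expressed in most tissues, had 2131 ± 256 CPM in imbibed seeds and 857 ± 109 CPM in dry seeds (1.31). BGLU28, a beta-glucosidase known from sulfur starvation, had 1137, 881 and 866 CPM in imbibed seeds, against 224, 118 and 123 CPM in dry seeds (log2 fold change 2.64 ± 0.37, edgeR adjusted p = 8.69e-05), and ATSDI1, annotated as a tetratricopeptide repeat gene and also known from sulfur starvation, had 709, 686 and 985 CPM in imbibed seeds, against 149.7, 116 and 115 CPM in dry seeds (log2 fold change 2.65 ± 0.38, edgeR adjusted p = 0.000116). DIN2, another glycosyl hydrolase gene, differed by 0.83 (not called among libraries ending in r alone), the aconitase gene ACO3 by 1.08, and the elongation factor gene AT5G60390 by 0.83. AT5G60390 overlaps a gene on the other strand.

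Wall-loosening genes held some of the steepest rises. Of 26 tested, 15 rose and 4 fell (2 fell with library totals), with a median of 3.48, or 3.22 with members at 0 in 1 group set to their bound. XTH16, a xyloglucan endotransglucosylase/hydrolase, had 45.9, 66.6 and 47.1 CPM in imbibed seeds, against 0.187, 0.0577 and 0.146 CPM in dry seeds (log2 fold change 8.67 ± 0.48, edgeR adjusted p = 1.18e-07). EXO, a gene of brassinosteroid-promoted growth, had 102, 166 and 133 CPM in imbibed seeds, against 0.436, 0.404 and 0.146 CPM in dry seeds (log2 fold change 8.61 ± 0.52, edgeR adjusted p = 3.22e-07). No dry library reached 1 CPM for EXO. Among expansins, which loosen walls without cutting them, EXPA8 had 9.49 ± 2.78 CPM in imbibed seeds and 0.759 ± 0.245 CPM in dry seeds (3.62) and EXPA10 28.9 ± 9.88 CPM in imbibed seeds and 0.494 ± 0.364 CPM in dry seeds (5.81). EXPA2, the expansin best known from germinating seeds, had 2.31, 3.40 and 1.33 CPM in imbibed seeds, against 0.498, 0.115 and 0 CPM in dry seeds and was not called (edgeR adjusted p = 0.0543), although a call resulted with a filter of 1 CPM in 3 libraries, with the Col-0 libraries fitted alone and with library totals. XTH15 was at 0 in every dry library and at least 114-fold higher in imbibed seeds, and PHI-1, of the EXO family, rose by 3.74. The summed level of the list ran against its count of calls, at 1680.5 ± 268 CPM in imbibed seeds and 3056 ± 958 CPM in dry seeds, and the largest loss was that of XTH25, chosen after its values were seen, at 794 and 2316 CPM in imbibed and dry seeds (-1.54).

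Aquaporins pass water through membranes. Of 9 tested, 1 rose and 3 fell (1 fell with library totals), 11.1% and 33.3% beside 27.2% and 25.2% of all tested genes. PIP3, of the plasma membrane, had 48.95, 52.4 and 42.9 CPM in imbibed seeds, against 15.5, 12.4 and 5.48 CPM in dry seeds (log2 fold change 2.11 ± 0.37, edgeR adjusted p = 0.000547). TIP3;1, the seed-type aquaporin of the storage vacuole membrane, had 1050.0 ± 314 CPM in imbibed seeds and 2693 ± 472 CPM in dry seeds (log2 fold change -1.36 ± 0.28, edgeR adjusted p = 0.0013). PIP1B differed by -0.48, which turned to 0.0070 with library totals. PIP2B fell (log2 fold change -1.85), a call lost without dry replicate 3 or imbibed replicate 1. Leaving out imbibed replicate 3, or taking library totals, gave 2 rises. Tubulin and related genes gave 12 rises and 5 falls among 28 tested, 42.9% and 17.9% beside 27.2% and 25.2% of all tested genes. The falls numbered 2 or 3 on leaving out any 1 library and 0 with library totals.

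DNA replication genes rose from a low level, while cell cycle genes of the same list did not pass the test. Of 14 tested, 8 rose and 0 fell (median 1.49), and all 8 encode subunits of the MCM helicase, which opens DNA at origins, or PCNA, the sliding clamp of DNA polymerase. MCM2 had 4.11, 5.70 and 4.27 CPM in imbibed seeds, against 0.187, 0.750 and 0.292 CPM in dry seeds (log2 fold change 3.48 ± 0.50, edgeR adjusted p = 6.69e-05; 4.29 without dry replicate 2). PCNA2 had 5.77, 5.96 and 7.35 CPM in imbibed seeds, against 1.12, 0.693 and 0.585 CPM in dry seeds (log2 fold change 2.98 ± 0.29, edgeR adjusted p = 3.07e-06). MCM6 had 1.84 ± 0.346 CPM in imbibed seeds and 0.0436 ± 0.0385 CPM in dry seeds (5.32), and PRL, the MCM7 gene, with 3 counts in the dry group, was 39.6-fold higher by counts (95% counting interval 13.3 to 194) (fitted 5.15, or 6.12 without dry replicate 3). MCM3 and MCM5 rose by 3.84 and 1.78, and the value of MCM3 was 4.798 without dry replicate 1. The D-type and B-type cyclin genes tested had means under 2 CPM in both states, and 0 of them were called.

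Of 14 tested DNA repair genes 5 rose and 3 fell (1 fell with library totals). These were 35.7% and 21.4%, beside 27.2% and 25.2% of all tested genes. The poly(ADP-ribose) polymerase genes differed among themselves. PARP2 had 3.03 ± 0.528 CPM in imbibed seeds and 0.408 ± 0.105 CPM in dry seeds (2.88) and PARP1 7.50 ± 0.409 CPM in imbibed seeds and 3.33 ± 0.254 CPM in dry seeds (1.17), while AT5G22470, annotated as poly ADP-ribose polymerase 3, had 967, 835 and 1099 CPM in imbibed seeds, against 3604, 3665 and 4639 CPM in dry seeds (log2 fold change -2.04 ± 0.19, edgeR adjusted p = 2.86e-06). LIG1, a DNA ligase of replication and repair, had 51.1 ± 4.65 CPM in imbibed seeds and 27.9 ± 1.64 CPM in dry seeds (0.87). MMH-1, a DNA glycosylase that removes oxidised bases, and KU70, of end joining, differed by 1.03 and 0.57.

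Of 28 tested heat shock genes 9 rose and 7 fell, shares near the 27.2% and 25.2% of all tested genes, and the falls numbered 4 without dry replicate 1, without imbibed replicate 2 or with library totals. AT5G51440, a small heat shock protein gene, had 58.1, 49.9 and 51.3 CPM in imbibed seeds, against 3.48, 4.502 and 4.42 CPM in dry seeds (log2 fold change 3.68 ± 0.17, edgeR adjusted p = 3.01e-08), and HSP17.6II had 52.6 ± 12.2 CPM in imbibed seeds and 12.8 ± 2.35 CPM in dry seeds (2.03). HSP101, a disaggregase of heat tolerance and seed maturation, had 439.9, 231 and 419.9 CPM in imbibed seeds, against 957, 881 and 976 CPM in dry seeds (log2 fold change -1.37 ± 0.22, edgeR adjusted p = 0.000178). HSFA9, the heat shock factor of seed maturation, had 41.8 ± 11.5 CPM in imbibed seeds and 233 ± 103 CPM in dry seeds (-2.48), and both overlap genes on the other strand. Of the class B factors, HSF4 rose (1.19) and AT-HSFB2B fell (-1.48).

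Redox enzymes detoxify the reactive oxygen that forms on drying and rehydration. Of 14 tested, 2 rose and 5 fell, while 7 rose with library totals. PER1, the seed 1-cysteine peroxiredoxin, had 1099, 1219 and 1559.8 CPM in imbibed seeds, against 5142, 4958 and 5809 CPM in dry seeds (log2 fold change -2.04 ± 0.20, edgeR adjusted p = 3.24e-06). The catalase genes CAT1 and CAT3 had 95.8 ± 10.8 CPM in imbibed seeds and 230.2 ± 46.4 CPM in dry seeds for CAT1 (-1.26) and 2106 ± 222 CPM in imbibed seeds and 4000.1 ± 206 CPM in dry seeds for CAT3 (-0.93), and CAT2 was not called (-0.03, or 0.46 and called higher with library totals). DHAR1, which recycles ascorbate, fell (log2 fold change -0.89). CSD2, a superoxide dismutase, differed by -0.43, which turned to 0.063 with library totals, and lost its call without dry replicate 2 or 3 or imbibed replicate 1 or 3. The rise of RBOHB, an NADPH oxidase gene with 2 counts in the dry group, was 16.1-fold higher by counts (95% counting interval 4.19 to 137), and it was not called without dry replicate 2 or 3 or imbibed replicate 1 or 2. CSD1, the other riser (log2 fold change 0.91), lost its call on leaving out any 1 of the same libraries.

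Large families linked to stress responses were called in both directions. Of 38 tested WRKY factors 4 rose and 14 fell, and of 131 cytochrome P450 genes 21 rose and 45 fell (40 and 28 with library totals). The count of WRKY rises was 1 or 2 without dry replicate 2 or 3 or imbibed replicate 1 or 2. Of 46 tested glutathione S-transferase genes 2 rose and 10 fell, and 4 rose without dry replicate 1 (9 rose and 2 fell with library totals). Of 17 tested stress transcription factors 5 rose and 3 fell. WRKY33 had 49.1, 35.5 and 27.7 CPM in imbibed seeds, against 188, 175 and 62.6 CPM in dry seeds (-1.92), with dry replicate 3 well under the other dry libraries and no call among libraries ending in r alone, and DREB2A, a factor of dehydration responses, had 221, 88.9 and 116 CPM in imbibed seeds, against 398, 434 and 510.1 CPM in dry seeds (log2 fold change -1.66 ± 0.28, edgeR adjusted p = 0.000296). WRKY18 fell (-1.19), while ERF104 and the zinc finger gene RHL41 rose (1.12 and 1.93). CBF2, a cold response factor with 2 counts in the dry group, was 38.7-fold higher by counts (95% counting interval 10.4 to 324). Its fitted log2 fold change of 5.11 was 7.99 without dry replicate 2.

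The low oxygen list gave 3 rises and 3 falls among 14 tested, 21.4% in each direction beside 27.2% and 25.2% of all tested genes. ADH1, the alcohol dehydrogenase of fermentation, had 277, 201 and 234 CPM in imbibed seeds, against 706, 791 and 893 CPM in dry seeds (log2 fold change -1.75 ± 0.22, edgeR adjusted p = 2.76e-05), with no overlap between the states, and it overlaps a gene on the other strand. AT5G15120, annotated as a putative thiol dioxygenase, had 54.2, 68.6 and 53.9 CPM in imbibed seeds, against 18.4, 22.0 and 38.1 CPM in dry seeds (log2 fold change 1.17 ± 0.24, edgeR adjusted p = 0.00129). The other calls were lost on leaving out single libraries. PDC2, pyruvate decarboxylase (-0.73), was not called when any 1 library but imbibed replicate 3 was left out, and LBD41 (-0.81) without dry replicate 3 or imbibed replicate 2 or 3. AT5G39890 (0.76) was not called without dry replicate 1 or 2 or imbibed replicate 2 or 3, and AT4G17260 (0.72) without any 1 dry library or imbibed replicate 2. Hence 1 member rose without dry replicate 1 or 2 or imbibed replicate 2, and 1 fell without dry replicate 3, without imbibed replicate 2 or with library totals, which gave 6 rises.

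Light and clock genes were called in both directions. Of 10 tested light signalling genes 5 rose and 2 fell, 50.0% and 20.0% beside 27.2% and 25.2% of all tested genes. Without dry replicate 3, imbibed replicate 1 or imbibed replicate 2, or with library totals, 1 fell. PIL5, the phytochrome-interacting factor that represses germination in the dark, had 89.7, 108 and 88.4 CPM in imbibed seeds, against 55.7, 49.5 and 56.0 CPM in dry seeds (log2 fold change 0.83 ± 0.13, edgeR adjusted p = 0.000124), and overlaps a gene on the other strand. HYH, a zipper factor related to HY5, had 13.7 ± 3.07 CPM in imbibed seeds and 3.46 ± 1.14 CPM in dry seeds (1.99), PIF3 and the photoreceptor genes PHYA and CRY1 rose by 0.79, 0.53 and 0.47, and CRY2 fell (-1.03). CRY1 was not called among libraries ending in r alone. Of 19 tested clock genes 6 rose and 8 fell, 31.6% and 42.1% beside 27.2% and 25.2% of all tested genes. The falls numbered 5 without imbibed replicate 2 and 4 with library totals. The morning genes LHY and CCA1 had 10.3 ± 2.38 CPM in imbibed seeds and 1.94 ± 1.06 CPM in dry seeds for LHY (2.41) and 7.20 ± 1.08 CPM in imbibed seeds and 2.40 ± 0.630 CPM in dry seeds for CCA1 (1.58). TOC1, an evening gene that they repress, had 83.9, 81.2 and 89.5 CPM in imbibed seeds, against 162, 168 and 178 CPM in dry seeds (log2 fold change -0.996 ± 0.11, edgeR adjusted p = 8.61e-06). The clock genes LCL1 and RVE8 fell as well (-1.48 and -1.02). The time of day at which each state was sampled is not given in the labels.

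Of 13 tested photosynthesis genes, known from green tissue, 2 rose and 4 fell, 15.4% and 30.8% beside 27.2% and 25.2% of all tested genes. LHCB5, a light-harvesting protein gene, had 1.80, 0.898 and 1.38 CPM in imbibed seeds, against 11.4, 9.06 and 11.4 CPM in dry seeds (log2 fold change -2.96 ± 0.35, edgeR adjusted p = 1.48e-05), and PSBP-1 of photosystem II differed by -1.36. RBCS2B, of Rubisco, had no count in dry seeds (at least 4.09-fold higher) and was not called when any 1 library was left out, and PSBO1 (1.27) was not called without dry replicate 2 or 3 or imbibed replicate 1 or 2. The call of LHCA1 (-1.25) was lost without dry replicate 3 or any 1 imbibed library, and that of LHCA4 (-0.59) when any 1 library but dry replicate 3 was left out. So 0 or 1 rose without dry replicate 2 or 3 or any 1 imbibed library, and 2 fell without any 1 imbibed library or with library totals.

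Genes that remove the cap of mRNA before decay fell relative to the bulk of the transcriptome. Of 9 tested mRNA decay genes 5 fell and 1 rose, although 1 fell and 3 rose with library totals. DCP2, the decapping enzyme, had 31.7, 30.3 and 27.9 CPM in imbibed seeds, against 95.8, 86.5 and 88.5 CPM in dry seeds (log2 fold change -1.59 ± 0.13, edgeR adjusted p = 9.18e-07). Its partners DCP1 and VCS differed by -0.70 and -0.49, AT1G79090 by -0.54 and the zinc finger gene AT5G44260 by -0.53, and AT5G44260 lost its call without dry replicate 2 or 3 or imbibed replicate 1 or 2. LSM1A rose (0.69). Of 49 tested translation initiation factor genes 19 rose and 10 fell (5 and 6 fell without imbibed replicate 2 and 3; 33 rose and 4 fell with library totals). Of 43 tested proteasome subunit genes 15 rose and 5 fell (32 and 2 with library totals). The initiation factor shares were 38.8% higher and 20.4% lower and the proteasome shares 34.9% and 11.6%, beside 27.2% and 25.2% of all tested genes.

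**Figure D5:**
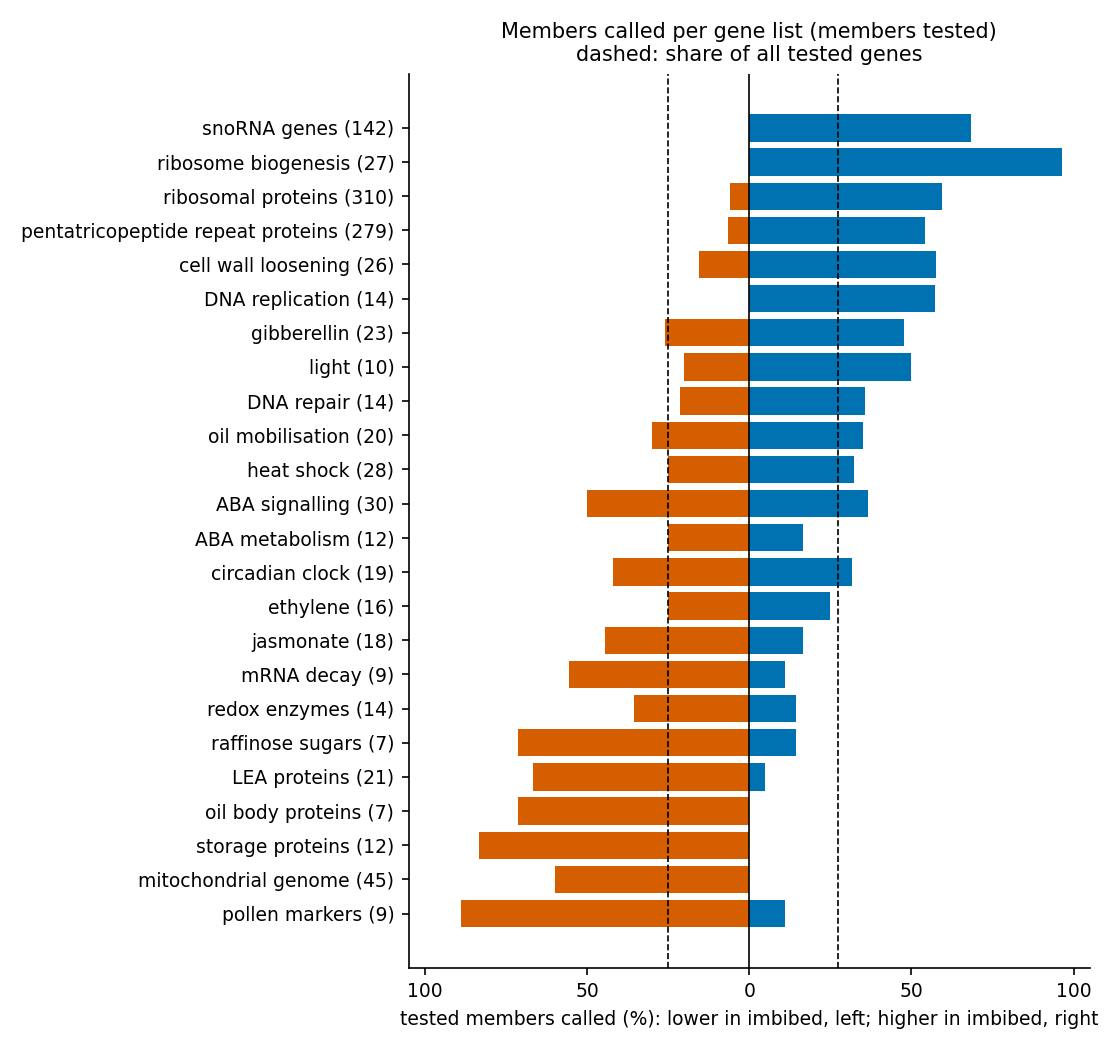
Share of the tested members of 24 gene groups called lower (orange, left) and higher (blue, right) in imbibed than in dry seeds, with the number tested in brackets; dashed lines mark the shares over all tested genes, 25.2% lower and 27.2% higher. Ribosome biogenesis, snoRNA and ribosomal protein genes extend past the line at right, and storage, oil body, LEA, mitochondrial and pollen groups extend past the line at left.

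Transcripts known from pollen were among the steepest falls. Of 9 tested pollen markers 8 fell and 1 rose (ANX1), with sums of 14.7, 19.8 and 21.3 CPM in imbibed seeds, against 367, 217 and 243 CPM in dry seeds, while the 6 tapetum markers summed to at most 0.0493 CPM in an imbibed library and to 0 in every dry one. VGD1, a pectin methylesterase of pollen tube growth, had 0.351, 0.473 and 0.444 CPM in imbibed seeds, against 93.7, 51.1 and 59.2 CPM in dry seeds (log2 fold change -7.32 ± 0.44, edgeR adjusted p = 1.97e-07). AGP23, a pollen arabinogalactan peptide gene, had 0.100, 0.236 and 0.197 CPM in imbibed seeds, against 83.5, 45.3 and 42.1 CPM in dry seeds (log2 fold change -8.29 ± 0.72, edgeR adjusted p = 3.78e-06), and sks13 differed by -6.65. For each of these every dry library lay far above every imbibed one. Among the 12 largest falls, sks12, AT3G17060, AT5G28690 and STP11, a sugar transporter gene known from pollen tubes, had no count in any imbibed library. STP11 had 6.97, 4.93 and 5.04 CPM in dry libraries and was at least 232-fold lower in imbibed seeds (edgeR adjusted p = 7.37e-06). The others of the 12 were RALFL8, AT5G60615, AT3G14040, AT1G35490, AT1G01980, APPB1, AT4G02250 and AT5G26692, each with 1 to 4 counts over the imbibed group. APPB1 and AT4G02250 encode invertase or pectin methylesterase inhibitors, and RALFL8 a signalling peptide. Their fitted values rest on a few counts, as that of AT4G02250 was -8.76 with all libraries and -12.18 without imbibed replicate 2. Whether these transcripts came from pollen on the dry seeds was not tested.

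Seed coat and mucilage genes summed to 886, 1004 and 789.8 CPM in imbibed seeds, against 520.4, 457 and 508 CPM in dry seeds. Of 9 tested, 2 rose, ARA12, a subtilase needed for mucilage release (859 ± 107 CPM in imbibed seeds and 463 ± 34.8 CPM in dry seeds, 0.89), and the cellulose synthase gene CESA5 (1.63), and 0 fell. ARA12 made up most of the sum in both states. The rises were 22.2% of the list, beside 27.2% of all tested genes, and the list had a median log2 fold change of 0.07. The 3 endosperm genes summed to 7063, 7685 and 9876 CPM in imbibed seeds, against 16237, 16315 and 29960.4 CPM in dry seeds, and most of that sum was EPR1. Of the 3, MAN7, an endo-β-mannanase, rose (0.83), and lost its call without dry replicate 1 or 2 or imbibed replicate 2. With library totals 2 rose, MAN7 and CYP707A2. EPR1, an endosperm extensin-like gene chosen after its values were seen, had 7019, 7636 and 9834 CPM in imbibed seeds, against 16209.6, 16278 and 29923 CPM in dry seeds. Dry replicate 3 was well above the other dry libraries for EPR1, and the difference (-1.35) was not called (edgeR adjusted p = 0.0947). EPR1 was called lower by DESeq2, with the Col-0 libraries fitted alone and with the library letter as a term.

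Of 41 tested microRNA precursor genes 11 rose and 2 fell, 26.8% and 4.88% beside 27.2% and 25.2% of all tested genes. Without imbibed replicate 1 the rises numbered 6, and 1 fell with library totals or without any 1 library other than imbibed replicate 1. MIR156c had 49.2, 50.8 and 43.5 CPM in imbibed seeds, against 16.8, 13.6 and 10.4 CPM in dry seeds (log2 fold change 1.81 ± 0.52, edgeR adjusted p = 0.0121; not called among libraries ending in r alone), and MIR156a differed by 1.26, a call lost without dry replicate 2 or 3 or imbibed replicate 1 or 2. Both belong to the family that controls phase change in plants. MIR775 had 6.05 ± 1.37 CPM in imbibed seeds and 0.355 ± 0.347 CPM in dry seeds (4.02; 4.91 without dry replicate 2). MIR5642a fell (-2.60), but it overlaps other genes on both strands and has near copies elsewhere. Counts of precursors are not those of mature miRNAs, and these 4 were chosen after their values were seen. Of 342 tested long noncoding RNA genes 68 rose and 48 fell (29 with library totals). These were 19.9% and 14.0%, both under the shares of all tested genes. Among the 342, 218 overlap a gene on the other strand.

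Gene structure was compared between the classes without a test. Genes that rose at least 2-fold, fell at least 2-fold or were not called had a median exonic length of 1814, 1641 and 1749 bases and a median GC content of 41.0%, 41.3% and 41.2%. A single exon block was found in 20.3%, 17.9% and 14.6% of them.

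The Col-0 response was set beside that of libraries labelled erf4, which share no library with it. On the scale of library totals ERF4 stood at 2.09, 8.31 and 19.3 CPM in libraries labelled imbibed erf4, replicates 1, 2 and 3, against 24.5, 18.5 and 18.18 CPM in imbibed Col-0. In dry seeds it stood at 3.57, 7.02 and 14.2 CPM in libraries labelled erf4, against 13.8, 11.3 and 9.28 CPM in Col-0. In the library labelled imbibed erf4 replicate 3 it thus lay within the Col-0 range, and in the library labelled dry erf4 replicate 3 above it, both against their labels. With the Col-0 libraries fitted alone 5567 genes rose and 5282 fell. The difference between the genotypes was called for 0 of 18897 genes by edgeR, with 1980 at an unadjusted p under 0.05 and a smallest adjusted p of 0.0723, and for 191 by DESeq2. It was called for 1 gene without Col-0 dry replicate 2. In all 4150 genes rose in both genotypes, which is 80.6% of the Col-0 rises and 77.5% of the erf4 rises, and 3998 fell in both, 83.9% of the Col-0 falls and 77.8% of the erf4 falls. Libraries labelled erf4 gave 5358 rises and 5138 falls among the 18897 tested genes. The genotypes were called in opposite directions for 8 genes. Without both libraries labelled erf4 replicate 3, a setting chosen after seeing the data, 3664 rose in both (72.4% of the Col-0 rises and 82.7% of the erf4 rises) and 3685 fell in both (76.2% and 82.5%). The difference was then called for 0 of 19126 genes by edgeR, with 1668 at an unadjusted p under 0.05. A count of 0 for the difference does not show that the genotypes respond alike.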

How the data were processed

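RNA from dry and imbibed seeds was sequenced in 12 libraries of 3 replicates per group, and the authors deposited raw read counts per gene. The submitters' processing notes name fastp 0.20.0, HISAT2 2.1.0, featureCounts 2.0.1, DESeq2 1.34.0 and the build TAIR10. The annotation release and the strand setting are not named.

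Genes were filtered with edgeR 4.0.16 (filterByExpr over the 4 groups), which left 18897 of 32833, and scaled by TMM. A quasi-likelihood fit on all 12 libraries, which then share 1 estimate of the spread (8 residual degrees of freedom, common biological coefficient of variation 0.241), gave the imbibed minus dry contrast within Col-0 (R 4.3.3, limma 3.58.1). CPM values add no prior count. A gene at 0 in 1 group has its fold bound taken against 3 counts over that group. Counting intervals are exact and at 95%. Alternatives included DESeq2 1.42.0. Near copies are genes aligned by BLAST 2.17.0 at 95% identity over at least 100 bases. On counts simulated for this comparison over 18897 genes, the fit recovered 51% of 100 genes changed 2-fold and 94% of 100 changed 4-fold, with 9 false calls. The simulation changed far fewer genes than the 9915 called in the data, so these rates need not hold there.

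Promoter windows were read from the RefSeq TAIR10.1 genome and matched by gene identifier. Named genes are the 12 largest rises and falls with at least 5 CPM in the higher group and no overlap of groups, the 10 largest gains and losses in CPM, up to 6 called members of each of 27 gene lists (3 where none was called) by smallest p, and members marked as key. A few others were named after their values were seen, namely those so described in the text and ABF1, ABF2, ABF4, ACO1, ANX1, AREB3, AT1G09467, AT5G41190, CAT2, CSD1, DPBF2, ECP63, EFE, ERF4, FIB1, PNM1, PPR596, RGL3, SESA1, SESA2, SNRK2.2 and SNRK2.3. The members and lists were chosen with earlier results of these data known.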

Additional observations from a re-analysis of the deposited data

How the results depend on the processing

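Among 21 alternatives none called a gene in the direction opposite to that with TMM factors. Library totals, an alternative chosen after seeing the data, gave 8443 rises and 2366 falls and turned the log2 fold changes of COI1, PIP1B, CSD2 and CAT2 to 0.12, 0.0070, 0.063 and 0.46. Libraries ending in r alone turned that of SIP1 to 0.42. A 2-fold minimum left 2953 and 2412. Counts under RLE factors were 4950 and 4940, under upper-quartile factors 5689 and 4255, with the library letter as a term 4386 and 4322, and by DESeq2 5249 and 5200. Leaving out 1 Col-0 library at a time gave 4434 to 4628 rises and 3896 to 4314 falls. The difference between genotypes was called for 4 genes with no filter, for 191 by DESeq2, and for 0 to 1 genes on leaving out 1 Col-0 library. The causes were not tested.

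With the replicate block, which pairs libraries of the same number, 5094 genes rose and 4742 fell, of which 4973 and 4609 were shared with the fit without it. Deviations of same-numbered imbibed and dry libraries correlated across genes at 0.11, 0.066 and 0.21, so the numbers were not taken to pair the samples, although each library correlated best with its own number. Of 240 named genes SESA2 and EPR1 gained a call with the block and 6 lost theirs. Col-0 libraries alone gave 5567 and 5282, or 5878 and 5634 with the block, also chosen after seeing the data, which called NCED6, ERF4, SESA1, SESA2, EPR1 and EXPA2 as well. Without both libraries labelled erf4 replicate 3 the counts were 5061 and 4834, with SESA2 called and 6 calls of named genes lost. Under 1 CPM, 603 of 3283 tested genes rose and 357 fell, and depth limits what can be seen there.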
